A study of Mus musculus with 31 samples.

Results

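MHC class I peptide processing and loading was followed through 9 genes in mouse skin with AA (alopecia areata, by the series title) under topical JAK inhibitors. The genes were chosen by name as the machinery that makes, carries and loads peptides for class I molecules, and all 9 were found among the 18193 genes that the arrays measured through a probe set with a single gene symbol. They were covered by 16 such probe sets, of which the brightest on average represented its gene. The study holds 31 arrays of C3H/HeJ skin in 3 arms, jak1i, jak3i and PBS, the vehicle. The arms were sampled at 0, 6 and 12 weeks with 3 arrays each, and jak1i and jak3i also at 24 weeks with 2 arrays each. Every group, PBS included, came from animals of the AA model, and neither skin free of disease nor PBS at 24 weeks was analysed here. Neither compound has a name beyond its code in the labels, and no dose is given there. Replicates are described as biological, without a word on repeated sampling of a mouse, so p-values measure the spread between these samples.

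Class I molecules show fragments of a cell's own proteins to CD8 T cells. Proteasomes cut the proteins, the transporter Tap1/Tap2 carries the peptides into the endoplasmic reticulum, Erap1 trims them there, and tapasin (Tapbp) holds empty class I molecules at the transporter until a peptide binds. Every class I heavy chain pairs with β2-microglobulin (B2m). Interferon-γ, signalling through JAK kinases, raises most of these genes, partly through Irf1 and the transactivator Nlrc5, and exchanges the constitutive catalytic proteasome subunits for Psmb8, Psmb9 and Psmb10. The growing hair follicle normally keeps class I low, a state called immune privilege, and its loss is a known feature of alopecia areata.

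Of the 9 genes, 4 lie within 34292 bases of the class II region of the MHC on chromosome 17 (build GRCm38.p6). Psmb9 (chr17:34182030-34187330), Tap1 (chr17:34187556-34197225), Psmb8 (chr17:34198195-34201454) and Tap2 (chr17:34204479-34216321) stand there side by side. Tapbp lies on the same chromosome (chr17:33919478-33929290), B2m on chromosome 2 (chr2:122147687-122153082), Nlrc5 and Psmb10 on chromosome 8 (chr8:94434335-94527272 and chr8:105935728-105938392) and Erap1 on chromosome 13 (chr13:74639573-74693205). All 9 are annotated as protein-coding. Psmb9 and Tap1 are transcribed away from each other from starts 226 bases apart, so the 225 bases between them are upstream of both. This stretch is shown because Psmb9 and Tap1 share it. The 150 bases before the starts of B2m and Psmb8 are shown because they held letters of interferon response elements. The sequences are those of RefSeq for the reference mouse, not of C3H/HeJ. They run 5′ to 3′ on the plus strand of GRCm38.p6, with matches to 3 motifs in capitals.
Psmb9-Tap1, chr17:34187331-34187555: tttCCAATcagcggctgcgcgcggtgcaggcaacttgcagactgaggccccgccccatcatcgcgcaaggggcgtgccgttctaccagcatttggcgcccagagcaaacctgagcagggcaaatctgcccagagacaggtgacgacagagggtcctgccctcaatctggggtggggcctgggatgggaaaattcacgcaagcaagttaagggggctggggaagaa
B2m, chr2:122147537-122147686: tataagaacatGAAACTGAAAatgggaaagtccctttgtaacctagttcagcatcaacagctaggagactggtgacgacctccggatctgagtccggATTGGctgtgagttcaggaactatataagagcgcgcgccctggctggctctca
Psmb8, chr17:34198045-34198194: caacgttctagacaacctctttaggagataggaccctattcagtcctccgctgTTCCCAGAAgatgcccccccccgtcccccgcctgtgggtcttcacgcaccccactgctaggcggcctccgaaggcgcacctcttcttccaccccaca
The motifs were searched on both strands of the 250 bases before each start, in the 7 members with an entry in the promoter table. The interferon-stimulated response element, searched as GAAA, any 2 bases and GAAA, matched in B2m from -139 to -130 and in 2.97% of 32817 promoters. The gamma-activated site, TTCNNNGAA, matched in Psmb8 from -97 to -89 and in 7.01% of promoters. The CCAAT box matched in 4 members, Tap1, Psmb9, Tapbp and B2m, and in 33.8% of promoters. The match of Tap1 (-222 to -218) and that of Psmb9 (-8 to -4) are the same bases of their shared stretch, counted for each gene. No match of these motifs overlapped a match of another in the stretches shown, and a match describes letters and not a binding site.

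The groups were checked before they were compared. The summed linear level of 9 skin genes, keratins and collagens among them, lay between 63038 and 107600 in every array. Their list mean (log2, relative to 31 arrays) was lower without overlap in jak3i at 6 weeks, at -0.45 to -0.26 against -0.08 to 0.24 in PBS. The same held in jak1i at 12 weeks, at -0.20 to 0.08 against 0.10 to 0.37 in PBS. In jak1i at 6 weeks and jak3i at 12 weeks it overlapped PBS. In jak3i at 6 weeks replicate 1 stood apart from the other arrays of its group, with a mean of the 9 class I processing genes of -1.68 against -0.55 and -0.52 (log2, each gene relative to its mean over 31 arrays), and all 9 genes had their lowest value there. The 2 arrays at 24 weeks also differed, at 0.39 and -0.25 in jak1i and 0.60 and -0.20 in jak3i. In PBS at 12 weeks skeletal muscle genes were low, with a list mean of -4.33 against 0.39 in PBS at 6 weeks.

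At 6 and 12 weeks of either inhibitor the 9 genes stood below PBS of the same week. In each of these 4 comparisons no inhibitor array reached the lowest PBS array for any of the 9, while groups did not overlap for 18.5% of all genes in jak1i and 15.6% in jak3i at 6 weeks, and for 36.2% and 38.3% at 12 weeks. At an adjusted p under 0.05 (limma, adjusted over all 18193 genes) 5 of 9 were lower in jak1i and 7 of 9 in jak3i at 6 weeks, where 1.22% and 1.5% of all genes were called lower. At 12 weeks 7 of 9 were lower in jak1i and 8 of 9 in jak3i, where 6.51% and 7.28% of all genes were called lower. None was higher. The median log2 difference of the 9 was -1.33 in jak1i and -1.50 in jak3i at 6 weeks and -1.27 and -1.10 at 12 weeks, beside medians over all genes between -0.03 and 0.04. In bulk skin, fewer cells of a type and less RNA per cell cannot be told apart.

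**Figure D1:**
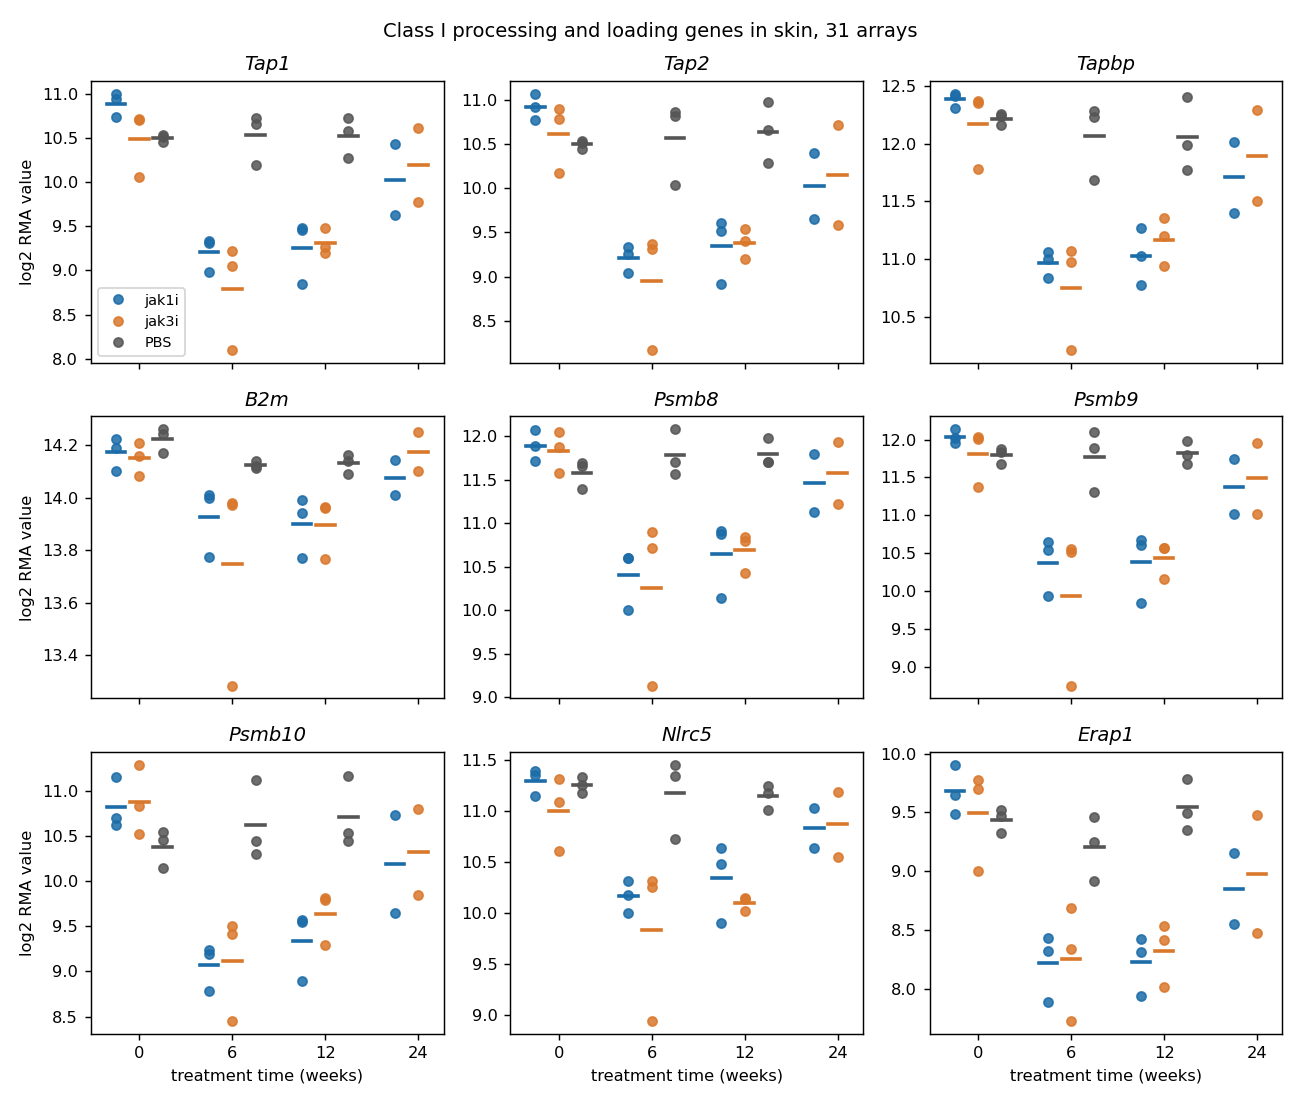
Log2 RMA values of the 9 genes (vertical axes, a scale for each gene) by treatment time in weeks for jak1i, jak3i and PBS; each point is 1 array and each bar the group mean. All inhibitor arrays of 6 and 12 weeks sit below the PBS arrays of the same week, and 1 jak3i array of 6 weeks is the lowest in every panel.

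Tap1, a subunit of the peptide transporter, read 8.98, 9.33 and 9.31 in jak1i at 6 weeks and 8.10, 9.22 and 9.05 in jak3i, against 10.20, 10.73 and 10.67 in PBS (log2 RMA values throughout). At 12 weeks it read 9.46, 9.48 and 8.84 in jak1i and 9.27, 9.20 and 9.49 in jak3i, against 10.58, 10.28 and 10.73 in PBS. The highest inhibitor array thus lay clear of the lowest PBS array at either week. The log2 difference from PBS was -1.33 in jak1i (SE 0.27, adjusted p = 0.0163) and -1.74 in jak3i (SE 0.27, adjusted p = 0.00382) at 6 weeks. At 12 weeks it was -1.27 in jak1i (SE 0.27, adjusted p = 0.00543) and -1.21 in jak3i (SE 0.27, adjusted p = 0.00684). The level of Tap1 was 2.51-fold lower in jak1i and 3.34-fold lower in jak3i than in PBS at 6 weeks. Another 3 probe sets of Tap1 had means of 5.53, 3.56 and 3.36, below the array medians of 6.05 to 6.24. The first differed by -0.61 to -0.17 over the 4 comparisons, less than the probe set used. The others, near the bottom of the arrays, differed by -0.19 to 0.04.

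Tap2, the other subunit of the transporter, read 9.04, 9.34 and 9.26 in jak1i at 6 weeks and 8.17, 9.37 and 9.32 in jak3i, against 10.04, 10.87 and 10.81 in PBS. The 12-week values were 9.52, 9.60 and 8.92 in jak1i and 9.20, 9.41 and 9.54 in jak3i, against 10.66, 10.29 and 10.97 in PBS. It was lower in all 4 comparisons, at log2 differences of -1.36 (SE 0.31, adjusted p = 0.0327) in jak1i and -1.62 (SE 0.31, adjusted p = 0.00787) in jak3i at 6 weeks. At 12 weeks the differences were -1.29 and -1.26 (SE 0.31 and adjusted p = 0.0115 for each).

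Tapbp, which encodes tapasin, read 10.84, 11.06 and 11.005 in jak1i at 6 weeks and 10.21, 11.07 and 10.98 in jak3i, against 11.69, 12.23 and 12.29 in PBS. Its 12-week readings were 11.03, 11.27 and 10.77 in jak1i and 10.94, 11.20 and 11.36 in jak3i, against 11.99, 11.77 and 12.40 in PBS. It was lower in all 4 comparisons, at log2 differences of -1.10 (SE 0.24, adjusted p = 0.0237) in jak1i and -1.32 (SE 0.24, adjusted p = 0.00616) in jak3i at 6 weeks. At 12 weeks it was lower, at -1.03 (adjusted p = 0.00877) in jak1i and -0.89 (adjusted p = 0.0168) in jak3i. A second, dimmer probe set of Tapbp differed by -1.33 to -0.98 over the 4 comparisons.

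B2m, the light chain of class I molecules, had the smallest differences of the 9 genes. It read 13.78, 14.00 and 14.01 in jak1i at 6 weeks and 13.29, 13.97 and 13.98 in jak3i, against 14.12, 14.14 and 14.11 in PBS. Its values at 12 weeks were 13.94, 13.99 and 13.77 in jak1i and 13.77, 13.96 and 13.97 in jak3i, against 14.09, 14.16 and 14.14 in PBS. Although no inhibitor array reached the lowest PBS array, the differences of -0.20 and -0.38 at 6 weeks and of -0.23 in each arm at 12 weeks did not pass the test (adjusted p = 0.421, 0.111, 0.219 and 0.188). The jak3i value of 6 weeks was -0.15 without replicate 1 (adjusted p = 0.333). Its values lay near the highest value on any array, 14.69, and whether this narrowed its differences was not tested. A second probe set of B2m, with a mean of 13.74, differed by -0.41 to -0.26.

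The 3 inducible proteasome subunits were lower in 11 of their 12 comparisons with PBS. Psmb8 read 10.01, 10.60 and 10.60 in jak1i at 6 weeks and 9.14, 10.72 and 10.90 in jak3i, against 11.57, 11.70 and 12.08 in PBS. It was lower, at -1.38 (SE 0.33, adjusted p = 0.0358) in jak1i and -1.53 (SE 0.33, adjusted p = 0.0153) in jak3i, and without jak3i replicate 1 the second value was -0.97 (adjusted p = 0.0300). At 12 weeks Psmb8 read 10.88, 10.91 and 10.15 in jak1i and 10.43, 10.80 and 10.85 in jak3i, against 11.70, 11.70 and 11.98 in PBS. It was lower, at -1.15 (adjusted p = 0.0235) in jak1i and -1.10 (adjusted p = 0.0252) in jak3i, with no inhibitor array at the level of PBS. A second, dimmer probe set of Psmb8 differed by -1.36 to -0.91 over the 4 comparisons.

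Psmb9, whose start faces that of Tap1, read 9.94, 10.64 and 10.55 in jak1i at 6 weeks and 8.76, 10.52 and 10.55 in jak3i, against 11.30, 11.89 and 12.10 in PBS. The difference was -1.39 (SE 0.36) in jak1i, which missed the threshold (adjusted p = 0.0561), and -1.82 (SE 0.36, adjusted p = 0.00968) in jak3i. The arrays of 12 weeks gave 10.68, 10.61 and 9.85 in jak1i and 10.16, 10.57 and 10.57 in jak3i, against 11.80, 11.68 and 11.98 in PBS. It was lower, at -1.44 (adjusted p = 0.0138) in jak1i and -1.39 (adjusted p = 0.0147) in jak3i.

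Psmb10 read 8.79, 9.24 and 9.20 in jak1i at 6 weeks and 8.45, 9.41 and 9.50 in jak3i, against 10.30, 10.44 and 11.12 in PBS. At 12 weeks Psmb10 read 9.55, 9.56 and 8.89 in jak1i and 9.29, 9.79 and 9.82 in jak3i, against 10.44, 10.54 and 11.16 in PBS. It was lower in all 4 comparisons, at log2 differences of -1.55 (SE 0.33, adjusted p = 0.0215) in jak1i and -1.50 (SE 0.33, adjusted p = 0.0183) in jak3i at 6 weeks, and -1.38 (adjusted p = 0.0102) and -1.08 (adjusted p = 0.0286) at 12 weeks.

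Nlrc5, the transactivator of class I genes, read 10.002, 10.17 and 10.31 in jak1i at 6 weeks and 8.94, 10.31 and 10.26 in jak3i, against 10.73, 11.45 and 11.35 in PBS. Its levels at 12 weeks were 10.48, 10.64 and 9.90 in jak1i and 10.02, 10.13 and 10.15 in jak3i, against 11.25, 11.01 and 11.18 in PBS. It was lower in jak3i at both weeks, at log2 differences of -1.34 (adjusted p = 0.0127) at 6 weeks, or -0.89 (adjusted p = 0.0280) without jak3i replicate 1, and -1.05 (adjusted p = 0.0156) at 12 weeks. In jak1i the differences of -1.01 at 6 weeks and -0.81 at 12 weeks did not pass (adjusted p = 0.0693 and 0.0552).

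Erap1, the trimming peptidase, read 7.89, 8.43 and 8.33 in jak1i at 6 weeks and 7.73, 8.35 and 8.69 in jak3i, against 8.92, 9.25 and 9.47 in PBS. At 12 weeks Erap1 read 8.43, 8.32 and 7.94 in jak1i and 8.01, 8.54 and 8.42 in jak3i, against 9.50, 9.35 and 9.78 in PBS. It was lower at 12 weeks, at log2 differences of -1.31 (SE 0.27, adjusted p = 0.00403) in jak1i and -1.22 (SE 0.27, adjusted p = 0.00604) in jak3i. At 6 weeks the differences of -0.99 and -0.95 did not pass (adjusted p = 0.0649 and 0.0636). A second probe set of Erap1, with a mean of 7.55, had smaller differences at 12 weeks, -0.90 in jak1i and -0.52 in jak3i, and -0.76 and -0.91 at 6 weeks.

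**Figure D2:**
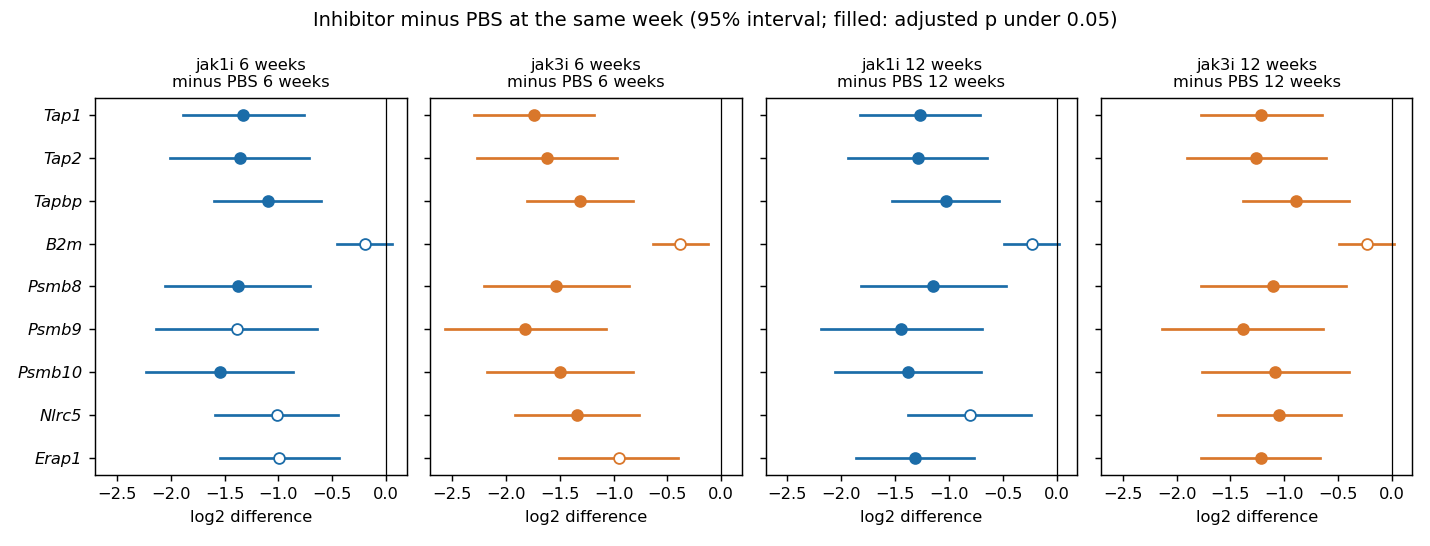
Log2 difference between each inhibitor and PBS of the same week (horizontal axes) for the 9 genes, with 95% intervals; filled points passed an adjusted p of 0.05. B2m lies nearest 0 in every panel, between -0.38 and -0.20, and the other 8 genes lie between -1.82 and -0.81.

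Which genes passed the test changed with single arrays. The number of genes called among all 18193 moved with the count of the 9. At 6 weeks the count for jak1i was 0 without jak1i replicate 1, PBS replicate 2 or PBS replicate 3 (13, 31 and 23 of all genes called in either direction, against 248 with every array). It was 1 without jak1i replicate 3 (107 of all genes) and 8 without PBS replicate 1 (559). The count for jak3i at 6 weeks was 2 without PBS replicate 2 or PBS replicate 3 (69 and 76 of all genes, against 353). At 12 weeks the count for jak1i was 2 without jak1i replicate 3 or PBS replicate 3 (929 and 597, against 2431). The count for jak3i at 12 weeks was 2 without jak3i replicate 1 or PBS replicate 3 (854 and 951, against 3148), and 5 without PBS replicate 1 (1198). The medians of the 9 stayed between -1.69 and -1.0 whichever array of the 4 comparisons was left out. With a variance from the compared arrays alone the counts at 6 weeks were 0 in each arm (20 and 39 of all genes). With PBS of 6 weeks as the control those at 12 weeks were 0 in jak1i and 4 in jak3i (15 and 419 of all genes).

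The mean of the 4 inhibitor groups of 6 and 12 weeks was also set against the mean of PBS at 6 and 12 weeks, a comparison added after the data had been seen. Here all 9 genes were lower, where 14.4% of all genes were called lower. The differences ran from -0.26 for B2m (SE 0.08, adjusted p = 0.0124) to -1.51 for Psmb9 (SE 0.22, adjusted p = 8.5e-05), with a median of -1.29. Against a wider set of 15 arrays, all of PBS and all of 0 weeks, the 12 inhibitor arrays lay lower without overlap for 8 of the 9 genes and for 0.907% of all genes. The exception was Nlrc5, with a highest inhibitor value of 10.64 against a lowest of 10.61.

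Before treatment the arms did not differ by the test. At 0 weeks 0 of 9 genes were called in jak1i against PBS or in jak3i against PBS (limma), 0 passed even an unadjusted p of 0.05, and 0% of all genes were called (5.04% and 7.57% at an unadjusted p under 0.05). Tap1 read 10.74, 10.94 and 11.004 in jak1i and 10.71, 10.72 and 10.06 in jak3i, against 10.54, 10.51 and 10.45 in PBS. All jak1i arrays lay above all PBS arrays for Tap1, and groups did not overlap for 6 of the 9 genes in this comparison, against 12.2% of all genes. The median difference was 0.24 in jak1i and 0.00 in jak3i, beside 0.02 and 0.01 over all genes.

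From 0 weeks onward 8 of the 9 genes fell under either inhibitor at 6 and 12 weeks, and none passed the test in PBS. Against its own start, 8 of 9 fell in jak1i at 6 weeks (median -1.49, 6.43% of all genes called lower) and 8 at 12 weeks (median -1.45, 6.5%). In jak3i 8 of 9 fell at 6 weeks (median -1.58, 2.05%) and 8 at 12 weeks (median -1.17, 2.85%). B2m was the gene not called each time, at -0.24, -0.27, -0.40 and -0.25. Psmb9 changed by -1.66 and -1.65 in jak1i at 6 and 12 weeks and by -1.86 and -1.37 in jak3i (SE 0.36 each). In PBS 0 of 9 were called at 6 or at 12 weeks (limma), 0 passed an unadjusted p of 0.05, and the medians were -0.03 and 0.03, where 0.0055% and 2.28% of all genes changed (9.82% and 16.3% at an unadjusted p under 0.05). For jak1i the count at 6 weeks was 5 without jak1i of 6 weeks replicate 1 (506 of all genes called, against 2250 with every array). For jak3i at 6 weeks it was 5 without jak3i of 0 weeks replicate 1 and 3 without replicate 2 (211 and 73 of all genes, against 573), and 0 with a variance from the compared arrays alone (59). Without jak3i of 6 weeks replicate 1, the fall was -1.02 for Psmb8 in place of -1.58 and -0.72 for Nlrc5 in place of -1.17, both still called. At 12 weeks the jak3i count was 0 without replicate 1 or 2 of 0 weeks (333 and 1 of all genes, against 1867) or replicate 1 or 2 of 12 weeks (14 and 21).

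The change under an inhibitor was also tested against the change in PBS over the same weeks. From 0 to 12 weeks 6 of 9 genes fell further in jak1i than in PBS, where 3.86% of all genes were called lower. Psmb10, for example, differed by -1.82 (SE 0.46, adjusted p = 0.0252) and Tap1 by -1.66 (SE 0.38, adjusted p = 0.0167). The higher start of jak1i enters these differences. At 0 weeks Psmb10 averaged 10.82 in jak1i and 10.38 in PBS, and Tap1 10.89 and 10.50, without a call. Without 1 array between 276 and 1916 of all genes were called, against 1247 with every array. The count of the 9 was 0 without PBS of 12 weeks replicate 3, 1 without jak1i of 12 weeks replicate 3 or PBS of 0 weeks replicate 1, 2 without jak1i of 0 weeks replicate 3, and 3 without PBS of 0 weeks replicate 2 or PBS of 12 weeks replicate 1. For jak1i to 6 weeks, jak3i to 6 weeks and jak3i to 12 weeks 0 of 9 passed (limma), with medians of -1.62, -1.74 and -1.27, and 8, 8 and 7 genes at an unadjusted p under 0.05. Of all genes, 0.11%, 0.0055% and 1.96% were called lower there, and 15.8%, 12.1% and 24.6% had an unadjusted p under 0.05, against 25.4% for jak1i to 12 weeks. The jak1i count to 6 weeks was 4 without PBS of 6 weeks replicate 1 and 1 without jak1i of 6 weeks replicate 2 (424 and 110 of all genes called, against 22 with every array). The jak3i count to 12 weeks was 4 without jak3i of 0 weeks replicate 3 and 3 without PBS of 12 weeks replicate 2 (798 and 1182, against 827).

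At 24 weeks the 9 genes lay between their levels at 12 and at 0 weeks in jak1i, and the arrays of a group disagreed. Tap1 read 10.43 and 9.63 in jak1i and 10.62 and 9.78 in jak3i, and replicate 1 was the higher array for all 9 genes in either arm. Against 0 weeks 0 of 9 were called in jak1i (median -0.66, 4 at an unadjusted p under 0.05, against 1.19% and 20.4% of all genes by the same rules) and in jak3i (median -0.30, 0 at an unadjusted p under 0.05, against 0.11% and 17.2%). The lowest 24-week value of Psmb9, 11.02 in either arm, stood above its highest value at 12 weeks, 10.68 in jak1i and 10.57 in jak3i. Set against 12 weeks, in comparisons added after the data had been seen, groups did not overlap for 8 of 9 genes in each arm, against 21.5% of all genes in jak1i and 23.9% in jak3i, and every difference was positive (medians 0.69 and 0.77). None passed (limma), with 6 and 7 at an unadjusted p under 0.05, where 0% and 0.033% of all genes were called and 3.35% and 5.16% had such a p.

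The 2 inhibitors were compared with each other at each week, in 4 pairs of groups. No member and no other gene was called at 0, 6, 12 or 24 weeks (limma, 0% of all genes), and 0 members passed an unadjusted p of 0.05, which 4.26%, 2.58%, 5.97% and 0.627% of all genes did. At 6 weeks jak1i minus jak3i was 0.42 for Tap1 (95% interval -0.14 to 0.97) and 0.43 for Psmb9 (-0.32 to 1.18). At 12 weeks it was -0.06 for Tap1 (-0.62 to 0.50) and -0.06 for Psmb9 (-0.81 to 0.69). The interval for Psmb9 at 6 weeks held a level 2-fold higher in jak1i.

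Ranked by group mean, the 4 inhibitor groups of 6 and 12 weeks were the lowest 4 of the 11 groups for all 9 genes. Their lowest group was jak3i at 6 weeks for 7 genes and jak1i at 6 weeks for 2, and the highest group was jak1i at 0 weeks for 7. Of the 90 pairs of neighbours in these orders, 8 did not overlap, and for Tap1, Tap2, Tapbp, Psmb8, Psmb9 and Erap1 1 of these gaps lay just above the 4 lowest groups. The 9 genes also moved together within groups. Over the 31 arrays, the deviations of each gene from its group means correlated with those of the mean of the other 8 at r = 0.82 for B2m to 0.98 for Psmb9, and the 36 pairs had a median within-group r of 0.87. The arrays share their normalization, and the low array of jak3i at 6 weeks enters each of these values.

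The inducible subunits were set beside the constitutive ones they replace. Within each array the log2 value of Psmb9 minus that of Psmb6 averaged -0.57 ± 0.34 in jak1i and -0.99 ± 1.10 in jak3i at 6 weeks, against 0.75 ± 0.39 in PBS (SD, n = 3 each). The jak3i mean rested on replicate 1, at -2.27, and without it was -0.36 (n = 2), still below all PBS arrays of that week, whose lowest was 0.33. At 12 weeks it averaged -0.60 ± 0.49 in jak1i and -0.54 ± 0.33 in jak3i, against 0.72 ± 0.08 in PBS. The difference of probe values has no absolute meaning, and only its change between groups is read. Psmb6 itself differed from PBS by -0.13 to -0.07 and Psmb7 by -0.30 to 0.21, with no call in the 4 comparisons. Psmb5 was lower in jak3i at 12 weeks, at -0.48 (adjusted p = 0.0192), and did not pass elsewhere (-0.22, -0.17 and -0.40). Its call held in 2 of 6 refits, each without 1 array. Of 11 further core subunits of the proteasome, 0 and 0 were called at 6 weeks in jak1i and jak3i (list medians -0.20 and -0.24). At 12 weeks 3 and 7 were lower (list medians -0.24 and -0.35), where 6.51% and 7.28% of all genes were called lower. The largest of these falls were those of Psma7 and Psma1 in jak3i at 12 weeks, -0.57 (adjusted p = 0.00883) and -0.54 (adjusted p = 0.00580). Both were called in most such refits, 5 and 6 of 6.

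**Figure D3:**
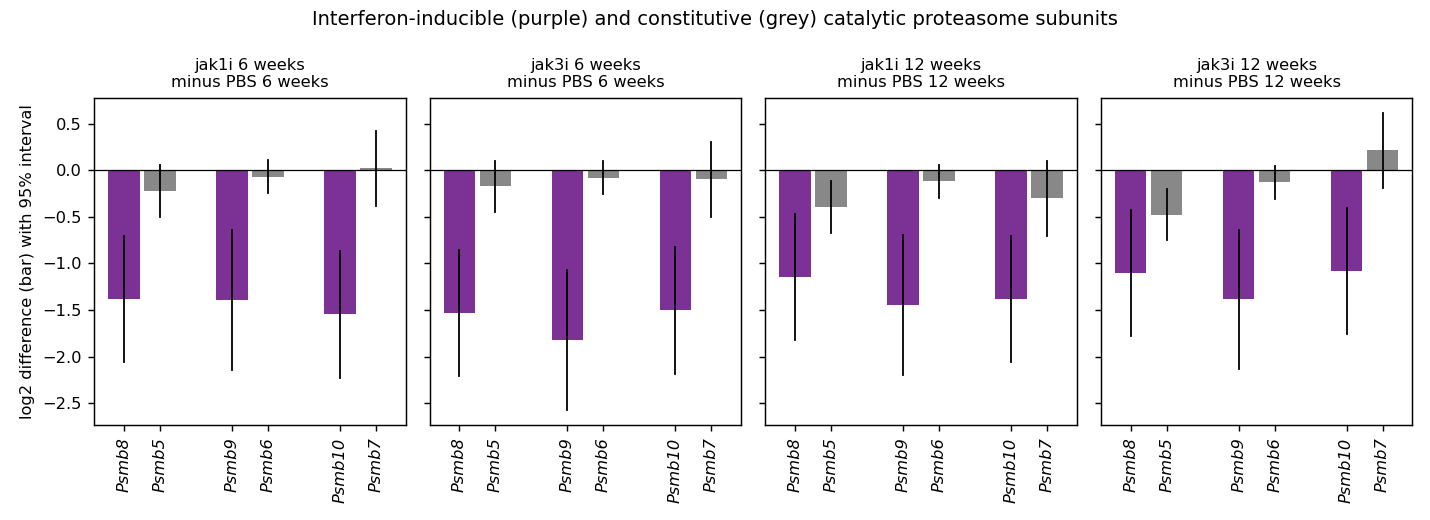
Log2 difference between each inhibitor and PBS of the same week (vertical axis, bars, with 95% intervals as lines) for inducible subunits in purple, each beside the constitutive subunit it replaces in grey. The inducible subunits lie between -1.82 and -1.08 and the constitutive ones between -0.48 and 0.21.

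Other genes of the pathway were read from lists, chosen like the 9 with earlier results of these data known. Of 10 measured class I heavy chain and related genes, 1 and 2 were lower at 6 weeks and 2 and 1 at 12 weeks in jak1i and jak3i, with list medians between -0.17 and -0.11. The shares of all genes called lower were 1.22% and 1.5% at 6 weeks and 6.51% and 7.28% at 12 weeks. H2-K1, a classical heavy chain, read 10.47, 10.94 and 10.82 in jak1i and 9.41, 10.88 and 11.02 in jak3i at 6 weeks, against 11.47, 11.90 and 11.59 in PBS. H2-K1 was lower in jak3i at 6 weeks (-1.22, adjusted p = 0.0330) and in both arms at 12 weeks (-1.04 and -1.01, adjusted p = 0.0234 and 0.0235), and did not pass in jak1i at 6 weeks (-0.91, adjusted p = 0.126). Without jak3i of 6 weeks replicate 1 its difference there was -0.71 and did not pass (adjusted p = 0.0635). H2-T24 was lower in all but jak3i at 12 weeks (-1.51, -1.74 and -1.76, against -0.72 there), and H2-D1, the other classical chain, did not pass (-0.77 to -0.38). As each of the 6 arrays of a comparison was left out in turn, the H2-T24 calls held in 1, 5 and 6 refits. Each call of H2-K1 held in 3 of 6. Cd1d1, which presents lipids, and H2-Q10 had positive differences in all 4 comparisons (0.62 to 1.90 and 0.50 to 1.30) and did not pass. Probe sets for these genes can bind near-identical family members, and C3H/HeJ carries other class I alleles than the reference strain, so heavy chain values are uncertain.

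Among 8 chaperones and editors of loading, 2 and 1 were lower at 6 weeks and 5 and 4 at 12 weeks in jak1i and jak3i. Over all genes, 1.22% and 1.5% were called lower at 6 weeks, and 6.51% and 7.28% at 12 weeks. Tapbpl, which encodes a relative of tapasin that edits peptides, was lower in jak3i at 6 weeks (-1.09, adjusted p = 0.0163) and in both arms at 12 weeks (-0.74 and -0.91). Those calls held in 4, 2 and 3 refits as each of the 6 arrays of a comparison was left out in turn. The general chaperones of the endoplasmic reticulum changed less, with Calr at -0.61 to -0.25, Pdia3 at -0.58 to -0.18 and Hspa5 at -0.54 to -0.13, each called in at most 2 comparisons. Hspa5 was called in jak3i at 12 weeks alone, at -0.54, and was at -0.35 (adjusted p = 0.208) without replicate 1 of that group. Of 6 genes for proteasome activators and assembly, 1 and 0 were lower at 6 weeks and 3 and 3 at 12 weeks. Psme1, a subunit of the interferon-inducible activator, was lower in 3 comparisons (-0.78, -0.62 and -0.61) and at -0.68 in jak3i at 6 weeks (adjusted p = 0.0650). Its calls held in 1, 2 and 1 of 6 such refits. Psme3 and the assembly factor Pomp were lower at 12 weeks only by the test (Psme3 -0.54 and -0.47, Pomp -0.42 and -0.44), and whether the weeks differ was not tested. Of 8 cytosolic and other trimming enzymes, 0 and 0 were called at 6 weeks, and 4 and 3 were lower and 1 and 1 higher at 12 weeks. At that week 6.85% and 10% of all genes were called higher. Lap3, an aminopeptidase, was lower in jak3i at 12 weeks (-1.72, adjusted p = 0.0353), and Blmh in both arms at 12 weeks (-0.97 and -0.92). The call of Lap3 held in 1 of 6 such refits and those of Blmh in 6 and 4.

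Of 12 transcription factors of class I genes, 3 and 3 were lower at 6 weeks and 4 and 4 at 12 weeks in jak1i and jak3i, with list medians between -0.36 and -0.20. Called lower among all genes were 1.22% and 1.5% at 6 weeks and 6.51% and 7.28% at 12 weeks. Irf1 read 9.33, 10.03 and 9.56 in jak1i and 8.80, 9.98 and 9.99 in jak3i at 6 weeks, against 10.81, 11.15 and 11.65 in PBS, without overlap. Irf1 was lower in all 4 comparisons (-1.56 and -1.61 at 6 weeks, -1.58 and -1.45 at 12 weeks), and so were Stat2 (-1.90, -1.77, -1.68 and -1.55) and Irf9 (-1.05, -1.39, -0.92 and -0.89), partners in the interferon-activated complex. When each of the 6 arrays of a comparison was left out in turn, Irf1 stayed called in 2, 3, 4 and 4 refits. Stat2 stayed called in 3, 4, 6 and 5 and Irf9 in 2, 6, 5 and 4, in the same order. Irf8 was lower in jak1i at 12 weeks (-1.42, adjusted p = 0.0175), and in 4 of 6 such refits. Of 7 genes of the interferon-γ signal, 1 and 3 were lower at 6 weeks and 2 and 2 at 12 weeks. Ifng itself read 4.14, 4.50 and 4.30 in jak1i and 4.16, 3.84 and 5.02 in jak3i at 12 weeks, against 7.18, 7.05 and 8.01 in PBS, differences of -3.10 (adjusted p = 0.00342) and -3.07 (adjusted p = 0.00318). These inhibitor values lay below the array medians of 6.05 to 6.24, and whether background affected the size of the difference was not tested. At 6 weeks Ifng was lower in jak3i (-2.37, adjusted p = 0.0431) and missed in jak1i (-2.31, adjusted p = 0.0559). Its jak3i call at 6 weeks held in 2 of 6 such refits, and each call at 12 weeks in 6 of 6. The receptor chain Ifngr2 was lower in jak3i at 6 weeks (-0.68, called in 2 of 6 such refits), and the feedback inhibitor Socs1 did not pass (-1.03 to -0.83).

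Among 9 genes counted as guardians of follicle immune privilege, 0 and 1 were lower at 6 weeks, and 0 and 1 were lower and 1 and 1 higher at 12 weeks. At 6 weeks 1.22% and 1.5% of all genes were called lower in jak1i and jak3i. At 12 weeks 6.51% and 7.28% were called lower and 6.85% and 10% higher, so these few calls do not set the list apart. Tgfb2, an immunosuppressive growth factor, read 8.002, 7.96 and 8.15 in jak1i and 7.78, 7.85 and 7.81 in jak3i at 12 weeks, against 7.04, 7.28 and 6.53 in PBS. Tgfb2 was higher there, at differences of 1.08 (adjusted p = 0.00720) and 0.86 (adjusted p = 0.0209). These calls held in 5 and 2 refits as each of the 6 arrays of a comparison was left out in turn. Cd274, which encodes PD-L1 and is itself induced by interferon-γ, was lower in jak3i at 6 weeks (-2.03, adjusted p = 0.0379, or -1.33 and adjusted p = 0.0874 without replicate 1 of that group) and did not pass elsewhere (-1.79, -1.32 and -1.05). Ido1 (-1.75 to -0.66) and Igf1 (0.05 to 1.28) did not pass in any of the 4. In the comparison of both inhibitors with PBS over 6 and 12 weeks, Tgfb2 and Igf1 were higher (0.78 and 0.79) and Cd274 and Ido1 lower (-1.55 and -1.05).

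**Figure D4:**
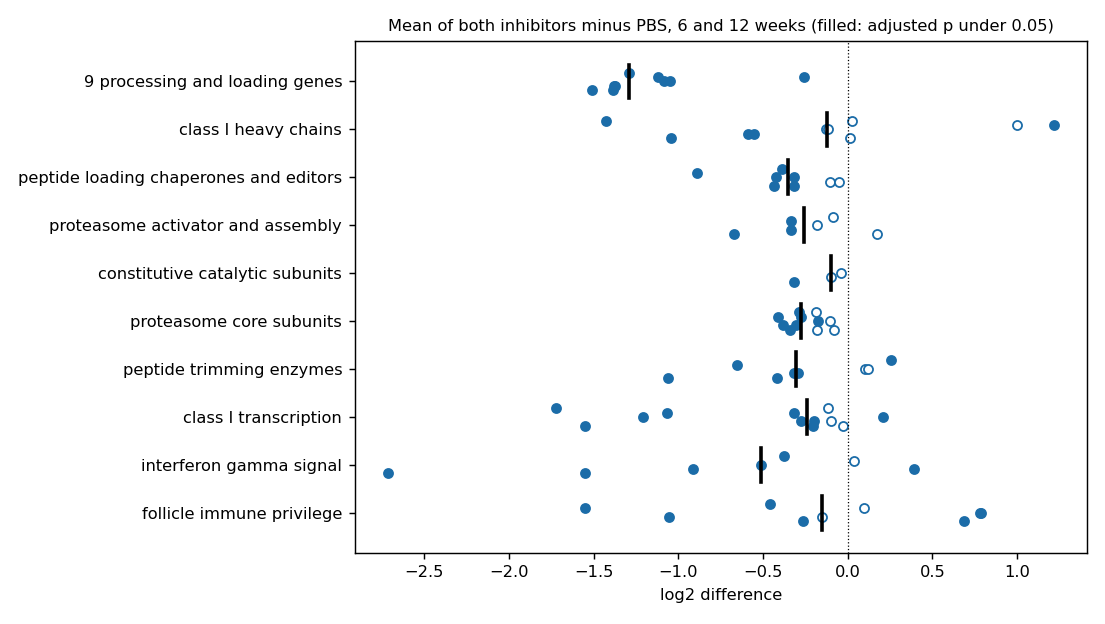
Log2 difference between the mean of both inhibitors and PBS over 6 and 12 weeks (horizontal axis) for each measured gene of the pathway lists (points, filled where the adjusted p was under 0.05), with the list median as a black bar. The 9 processing and loading genes have a median of -1.29, and the other lists have medians between -0.51 and -0.10.

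Outside the 9, the genes whose levels followed their mean most closely over the 31 arrays were Tapbpl, Gbp2, Dtx3l, Parp9 and Gbp2b. Gbp2 and Gbp2b encode interferon-induced GTPases, and Dtx3l and Parp9 encode partners in a complex known from interferon responses. Pearson's r was 0.98 for Tapbpl and 0.97 for each of the others (Spearman's rho 0.95, 0.95, 0.96, 0.96 and 0.95), and without the 2 arrays farthest from the median it was 0.97, 0.96, 0.97, 0.98 and 0.96. The arrays fall into treated and other groups, so the within-group values, from deviations from group means, are given too. They were 0.95, 0.94, 0.92, 0.89 and 0.93. The genes were picked for this likeness among 18184, so the values describe the choice and carry no test. Irf1 came seventh (0.97).

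Markers of T and NK cells moved with the 9 genes. Of 16 measured markers, 11 were lower in jak1i and 10 in jak3i at 6 weeks, and 11 and 13 at 12 weeks. For this and the lists below, 1.22% and 1.5% of all genes were called lower at 6 weeks. At 12 weeks 6.51% and 7.28% of all genes were called lower and 6.85% and 10% higher. The summed linear level of the 16 markers was 901 to 1109 in jak1i and 952 to 1257 in jak3i at 6 weeks, against 3836 to 4633 in PBS. At 12 weeks it was 1257 to 1714 in jak1i and 899 to 1221 in jak3i, against 3507 to 8290 in PBS. The array with the lowest mean of the 9 genes, jak3i at 6 weeks replicate 1, was not the lowest for these markers. With the mean of the T and NK cell list as a covariate, 0 of 9 genes were called in the 4 comparisons with PBS, where 0 of all 18193 genes were called too, so this says nothing particular about the 9. Their medians there were 0.00, -0.34, -0.11 and 0.16. This list mean changed with the treatment itself, so its part in the lower class I levels cannot be told apart from that of treatment. The 12 markers of macrophages and dendritic cells overlapped more, with 0 and 0 called at 6 weeks and 4 and 0 lower at 12 weeks. Of 14 skeletal muscle genes 14 were higher at 12 weeks in each arm against PBS, and with their mean as a covariate 0 of the 9 and 0 of all genes were called at 12 weeks against PBS in each arm (medians of the 9 -0.82 and -0.78), with 5 and 7 of the 9 at 6 weeks (182 and 302 of all genes). Of 10 hair shaft genes 2 and 5 were lower at 12 weeks, of 5 B and plasma cell genes 2 and 3 were lower, and of 5 endothelial genes 0 and 5 were higher, with no call at 6 weeks. Inhibitor arrays of 6 weeks differed widely in hair shaft genes. Their list mean ran from -2.80 to 3.17 in jak1i and from -3.23 to 3.69 in jak3i, against 0.48 to 2.32 in PBS. The part of muscle, hair, B cells and vessels in these results was not tested.

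**Figure D5:**
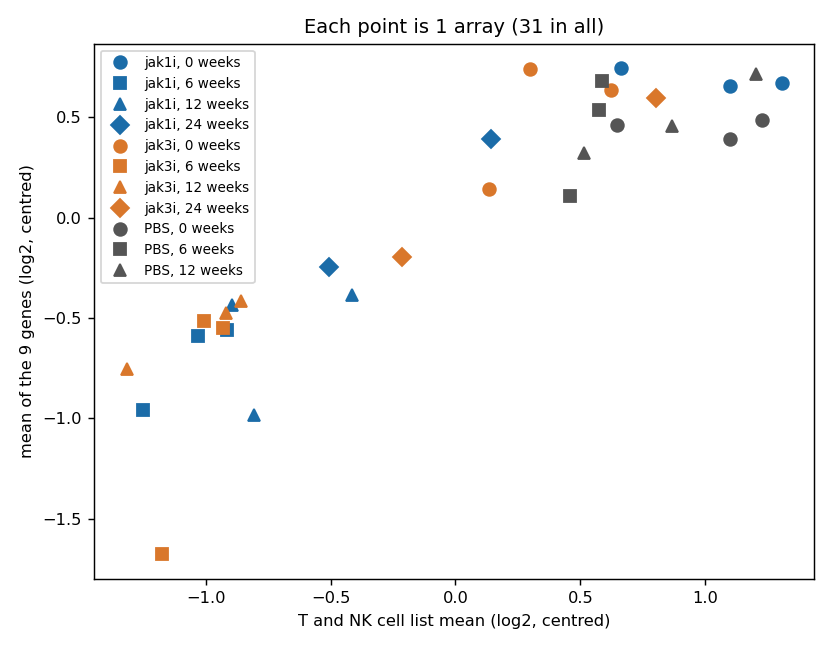
Mean of the 9 genes (vertical axis) against the mean of the T and NK cell list (horizontal axis), both in log2 relative to the mean of 31 arrays; each point is 1 array, coloured by arm and shaped by week. Inhibitor arrays of 6 and 12 weeks lie at the lower left, PBS and 0-week arrays at the upper right, and the 24-week arrays spread between these.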

How the data were processed

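RNA of mouse skin was hybridised to Affymetrix arrays after labelling with the 3' IVT kit, per the labels' protocols. The authors deposited log2 values made with RMA, per the submitters' processing notes; its version was not stated. RMA equalises the distributions of arrays (medians 6.05 to 6.24), so levels are relative. No detection calls or scan dates entered the tests, and the number of arrays limits the precision.

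Of 45101 probe sets, 34945 named 1 gene and were no controls, and the brightest stood for each of 18193 genes. Weeks were read from the W in the titles. In limma 3.58.1 (R 4.3.3) 1 model of 11 group means was fitted, with 20 residual and 2.50 prior degrees of freedom, and 22 planned and 3 added comparisons were drawn from it. Calls used a Benjamini-Hochberg adjusted p under 0.05 over all genes, and the fit was tested on simulated data. Named genes are the 9, up to 4 per pathway list with the largest change against PBS, a fixed set of partners (Psmb5, Psmb6, Psmb7, Psme1, Irf1, H2-K1, H2-D1) and the 5 genes most like the mean of the 9. Psme2 was not analysed here. The members and lists were chosen with earlier results of these data known. Same-numbered arrays were checked for pairing by the correlation of their deviations from group means. In 2 comparisons every value was over 0.1. These were jak3i with PBS at 12 weeks (3 pairs, 0.16 to 0.38) and jak1i with jak3i at 24 weeks (2 pairs, 0.56). With 2 arrays a group, the values of both pairs are equal by construction. Over the 18 comparisons checked the values ran from -0.61 to 0.56, and no label states a pairing. Alternatives were array centring, a filter on dim genes, the mean of all probe sets, a trended variance, the compared arrays alone, PBS of 6 weeks as control, a replicate block, 2 covariates and leaving out each array.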

Additional observations from a re-analysis of the deposited data

Results flagged for a closer look

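Only 1 kind of result was marked: a change from 0 to 12 weeks in jak1i that differed from the change in PBS by the interaction test of limma. It held for 6 of the 9 genes. For all 6 the jak1i mean at 0 weeks lay above that of PBS, without a call, and this enters the difference of changes. The difference of changes was -1.66 for Tap1 (SE 0.38, adjusted p = 0.0167), -1.71 for Tap2 (SE 0.44, adjusted p = 0.0263) and -1.20 for Tapbp (SE 0.34, adjusted p = 0.0367). It was -1.68 for Psmb9 (SE 0.51, adjusted p = 0.0494), -1.82 for Psmb10 (SE 0.46, adjusted p = 0.0252) and -1.56 for Erap1 (SE 0.38, adjusted p = 0.0195). Psmb8 was close to the threshold, at -1.46 (adjusted p = 0.0563). No group held enough arrays for a check of single outlying values.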

How the results depend on the processing

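Each of the 25 comparisons was refitted under every alternative that applied to it; PBS of 6 weeks as control applied to 2. With the replicate number as a block, the count for jak3i against PBS at 12 weeks, where deviations of same-numbered arrays correlated at 0.16 to 0.38, was 8 as before. No label states that these arrays are paired. The block moved 2 other counts, of jak3i from 0 to 12 weeks to 7 and of the jak1i change to 12 weeks beyond PBS to 5, and no other call.

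With the T and NK cell covariate the counts were 0 in all comparisons, and 81 of 225 values changed sign. In the comparisons with calls of the 9, 0 of all genes were called as well. Of these 81 values, 25 were of genes called in the reported fit; all 25 turned positive, with a lowest adjusted p of 0.990. Against PBS the 25 were Tap2 0.12 and Tapbp 0.090 in jak1i at 6 weeks, and Tap2 0.15 and Tapbp 0.13 in jak1i at 12 weeks. In jak3i at 12 weeks they were Tap1 0.11, Tap2 0.49, Tapbp 0.51, Psmb8 0.096, Psmb9 0.16, Psmb10 0.28, Nlrc5 0.15 and Erap1 0.23. Against 0 weeks they were Tap2 0.22, Tapbp 0.13, Psmb9 0.052, Nlrc5 0.18 and Erap1 0.14 in jak1i at 6 weeks, Tap2 0.026 and Nlrc5 0.13 in jak1i at 12 weeks, and Tap2 0.044 and Tapbp 0.023 in jak3i at 12 weeks. Over both inhibitors they were Tap2 0.15, Tapbp 0.15, B2m 0.060 and Erap1 0.16.

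With the muscle covariate the counts were 0, as over all genes, for both arms against PBS at 12 weeks, for the jak1i change to 12 weeks beyond PBS and for both inhibitors, and 5 for jak3i from 0 to 12 weeks. With the compared arrays alone they were 0 for both arms against PBS at 6 weeks and for jak3i from 0 to 6 weeks, 6 for the jak1i change to 6 weeks beyond PBS and 7 for the jak3i change to 12 weeks beyond PBS. With PBS of 6 weeks as control they were 0 in jak1i and 4 in jak3i at 12 weeks. Without dim genes they were 8 for jak1i against PBS at 6 weeks, and 2 and 4 for the changes beyond PBS of jak1i to 6 and jak3i to 12 weeks. With centred arrays the last was 3. Centring moved the median of all genes in jak3i against PBS at 12 weeks to -0.17.

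Leaving out 1 array gave counts of 0 to 8 and 2 to 8 for jak1i and jak3i against PBS at 6 weeks, and 2 to 7 and 2 to 8 at 12 weeks (13 to 559, 69 to 1142, 597 to 2940 and 854 to 3547 of all genes). Against 0 weeks they were 5 to 8 and 6 to 8 in jak1i and 3 to 9 and 0 to 8 in jak3i at 6 and 12 weeks (506 to 2996, 1168 to 2196, 73 to 2463 and 1 to 1886 of all genes). The changes beyond PBS gave 0 to 4, 0 to 0, 0 to 6 and 0 to 4, (0 to 424, 0 to 1, 276 to 1916 and 0 to 1182 of all genes), and both inhibitors against PBS gave 9 to 9 (4167 to 6276). The other comparisons stayed at 0. The causes of these changes were not tested. With 3 arrays a group, calls near the threshold can rest on 1 array, and saturation of bright probe sets such as that of B2m was not checked.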
